A study of Mus musculus with 10 samples.

Results

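The 4 bone morphogenetic protein (BMP) ligand genes Bmp4, Bmp5, Bmp6 and Bmp7, the 4 Id genes Id1, Id2, Id3 and Id4, and the inhibitory Smad genes Smad6 and Smad7 were examined in dorsal telencephalon, the embryonic tissue that forms the cerebral cortex. These 10 genes were listed by symbol and matched to the identifiers of the count tables, which hold 43629 genes. All 10 passed the filter on low counts that left 17039 genes for testing. Total RNA was taken at E14.5 from C57BL/6 embryos, with 5 control samples without Cre that were Dot1l-cKO f/+ and 5 Dot1l-cKO samples with 1 copy of Cre that were Dot1l-cKO f/f. Dot1l encodes the methyltransferase of histone H3 lysine 79, and the comparison asks which transcripts differ when it is deleted in the telencephalon. Controls had no Cre and carried 1 floxed allele, while Dot1l-cKO embryos carried Cre and 2 floxed alleles, so the effect of Cre itself and that of the deletion cannot be told apart. Per the study's methods the 2 genotypes were littermates. The labels call the samples biological replicates.

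BMP ligands bind receptor kinases at the cell surface, which phosphorylate Smad1, Smad5 and Smad9. These enter the nucleus with Smad4 and raise transcription of target genes, of which the Id genes are the best known. Id proteins bind bHLH transcription factors and keep them off DNA, and Smad6 and Smad7 are targets that in turn inhibit the pathway. In the embryonic forebrain BMP ligands are made at the dorsal midline, in the choroid plexus and in the meninges, and Id genes are expressed in progenitors and blood vessels.

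Promoter sequences are shown for the Id genes and for Smad6 because Smad complexes act on such genes through short motifs. One is the GC-rich motif GGCGCC, which reads the same on both strands. The other is the Smad box, GTCT on one strand, which on the opposite strand reads AGAC. The RefSeq windows on GRCm38.p6, from 250 bases before to 50 bases after a gene's start, were matched for 7 of the 10 genes; Bmp7, Id1 and Smad7 were not matched. GGCGCC, searched on both strands, was in the windows of Id2 and Id4 and in 11.9% of all 32851 windows. The Smad box, on either strand, was in 6 of the 7 windows and in 88.0% of all windows. The GC-rich motif with a Smad box 5 bases further on, again on both strands, was in none of the 7 and in 0.0731% of all windows. Smad6 held GTCTAGAC, a Smad box on each strand side by side, across its start, a pattern found in 0.213% of all windows and looked for after the sequence had been seen. The Id2 stretch is chr12:25096254-25096342 on the minus strand and lies inside the longer GENCODE gene but in none of its exons, the Id3 stretch is chr4:136143741-136143770 on the plus strand and lies in the 5′ UTR of the GENCODE model, and the Id4 stretch is chr13:48260866-48261115 on the plus strand. The Smad6 stretch is chr9:64022050-64022209 on the minus strand and ends 10 bases into the gene. Capitals mark the GC-rich motif and the Smad boxes. A match describes the letters and is no evidence of a bound site.
Id2: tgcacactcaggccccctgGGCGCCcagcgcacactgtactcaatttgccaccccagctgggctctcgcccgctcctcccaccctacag
Id3: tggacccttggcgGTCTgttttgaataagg
Id4: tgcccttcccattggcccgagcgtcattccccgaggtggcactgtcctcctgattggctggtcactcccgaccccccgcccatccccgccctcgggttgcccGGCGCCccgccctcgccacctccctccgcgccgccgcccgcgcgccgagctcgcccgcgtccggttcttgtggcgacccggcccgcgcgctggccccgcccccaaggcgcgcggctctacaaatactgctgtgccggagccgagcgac
Smad6: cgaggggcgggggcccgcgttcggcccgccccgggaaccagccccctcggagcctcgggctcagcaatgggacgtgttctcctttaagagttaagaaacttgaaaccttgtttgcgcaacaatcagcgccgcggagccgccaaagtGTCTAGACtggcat

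Total counts ranged from 54202349 to 66556034 per sample. The normalised tables carry in their column names a number that the sources used here do not explain, called the header number. Replicates 2 and 3 of either genotype share number 57, whereas replicates 1, 4 and 5 each have another number that the genotypes share. The 4 libraries of number 57 had at most 0.492% of their counts in mitochondrial rRNA, against at least 5.79% in the other 6. Differences are therefore also given within header number 57 and within the other 6 libraries, which pool 3 header numbers. CPM is a count scaled to a library total of 1000000. Dot1l stood at 31.4, 41.5, 36.6, 40.6 and 36.3 CPM in control replicates 1 to 5 and at 42.3, 20.1, 39.6, 43.4 and 51.7 CPM in Dot1l-cKO replicates 1 to 5. These counts cover the whole gene, and which exons the deletion removes is not given in the sources used here, so they do not check the labels.

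Of the 10 genes, 1 was differentially expressed (DE), which means an adjusted p under 0.05 in edgeR's quasi-likelihood test. That gene was Id1, and it was higher in Dot1l-cKO. Id3 differed by a larger fold but missed the threshold in this test, and passed it when replicates of the same number were compared within pairs. Id2 and Id4, all 4 ligands and both inhibitory Smads did not pass the test. Over all genes tested, 7.11% were DE, 5.67% increased and 1.44% decreased, so 1 of 10 is near the background. With the replicate number as a block, 2 of the 10 genes increased and none decreased, against 9.41% DE over all genes, 6.51% increased and 2.91% decreased. The CPM of the groups overlapped for each of the 10 genes, whereas the groups did not overlap for 8.34% of all genes tested. The median log2 fold change of the 10 genes was 0.02, beside -0.01 over all genes tested.

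**Figure D1:**
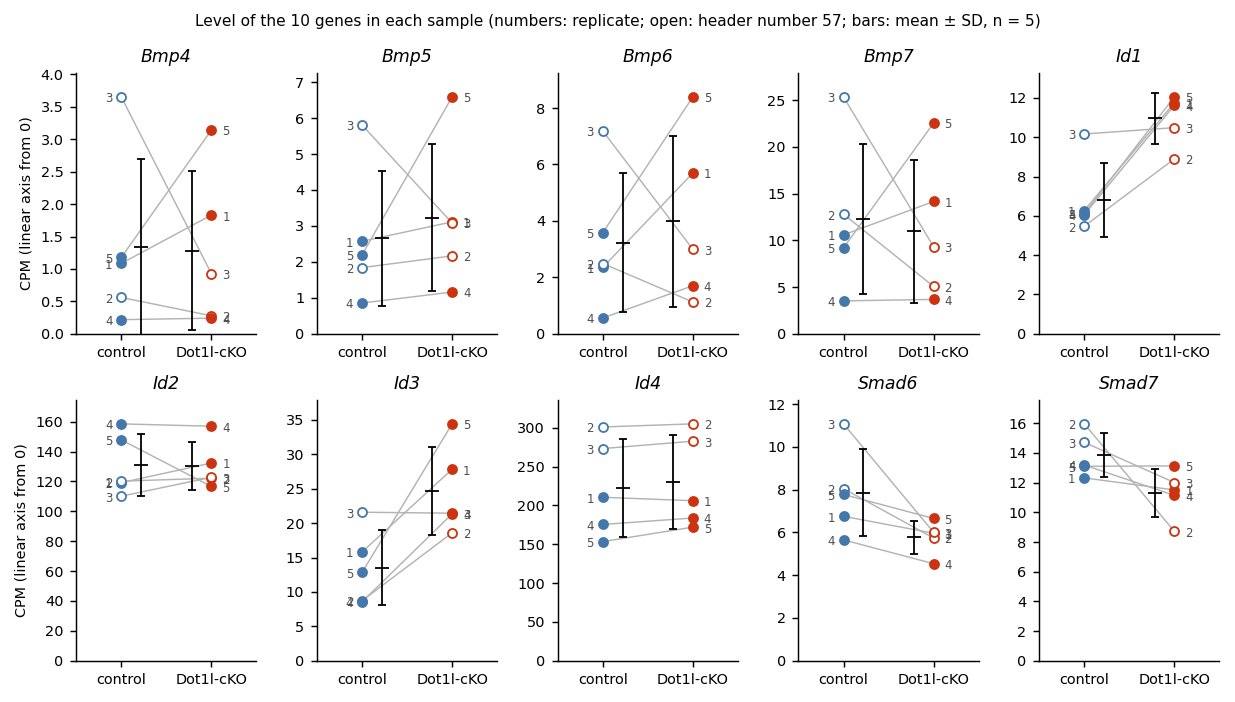
Level of each of the 10 genes in CPM on a linear axis from 0, with 1 point per sample, grey lines joining samples of the same replicate number, open points for header number 57, and black bars for the mean ± SD of 5 samples. Id1 runs upward in 5 of 5 pairs, from 5.47 to 10.2 CPM among controls to between 8.90 and 12.05 CPM in Dot1l-cKO, while the lines of the 4 ligands cross.

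Per kilobase of exon, which allows levels of different genes to be compared, the 10 genes spanned a wide range. Id4 was highest, with 57.9 ± 16.4 CPM per kb in controls and 59.7 ± 15.6 in Dot1l-cKO (SD, n = 5 each). Id2 followed with 53.8 ± 8.54 and 53.4 ± 6.57 CPM per kb, and the ranges of Id4 and Id2 over the 10 samples overlapped. Every sample's Id2 level lay above every sample's Id3 level, the only place in the order where neighbours were separated. Id3 stood at 7.54 ± 3.04 and 13.8 ± 3.57 CPM per kb, and Id1 at 5.88 ± 1.63 and 9.45 ± 1.12. Bmp7, Smad7, Smad6, Bmp6, Bmp5 and Bmp4 came next in that order by their mean over the 10 samples, and each overlapped the next. Bmp4 was lowest, with 0.596 ± 0.601 CPM per kb in controls and 0.571 ± 0.544 in Dot1l-cKO.

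The 4 ligands were low and varied far more among samples of one group than between the groups. Bmp7 (ENSMUSG00000008999, GRCm38 chromosome 2, 172868012 to 172940321, minus strand) was the highest of them, and encodes a ligand made in the meninges and at the dorsal midline. It stood at 10.6, 12.8, 25.3, 3.52 and 9.198 CPM in control replicates 1 to 5 and at 14.2, 5.06, 9.31, 3.68 and 22.5 CPM in Dot1l-cKO replicates 1 to 5. Control replicate 3 and Dot1l-cKO replicate 5 were the high samples and replicate 4 was low in both groups, so the groups covered the same range. The log2 fold change of Dot1l-cKO over control was -0.17 ± 0.54 (SE, 95% interval -1.36 to 1.02, edgeR adjusted p = 0.900).

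Bmp6 (ENSMUSG00000039004, chromosome 13, 38345107 to 38500302, plus strand) encodes a ligand of the same subgroup as Bmp5 and Bmp7. Its levels were 2.35, 2.49, 7.19, 0.561 and 3.58 CPM in control replicates 1 to 5 and 5.70, 1.13, 2.99, 1.70 and 8.39 CPM in Dot1l-cKO replicates 1 to 5. The highest and lowest of the 10 samples differed by 15.0-fold. The same 2 samples were the highest of their groups as for Bmp7, and the log2 fold change was 0.30 ± 0.63 (SE, 95% interval -1.10 to 1.69, edgeR adjusted p = 0.839).

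Bmp5 (ENSMUSG00000032179, chromosome 9, 75775364 to 75900310, plus strand) stood at 2.57, 1.84, 5.81, 0.856 and 2.19 CPM in control replicates 1 to 5 and at 3.11, 2.17, 3.08, 1.16 and 6.59 CPM in Dot1l-cKO replicates 1 to 5. Its groups overlapped over most of their range, and it was higher in Dot1l-cKO in 4 of 5 pairs. Its fitted log2 fold change was 0.28 ± 0.51 (SE, 95% interval -0.84 to 1.40, edgeR adjusted p = 0.812). Bmp4 (ENSMUSG00000021835, chromosome 14, 46383520 to 46390669, minus strand), which encodes a main dorsal midline ligand, was counted with between 14 and 244 reads per sample. It stood at 1.09, 0.561, 3.65, 0.218 and 1.18 CPM in control replicates 1 to 5 and at 1.83, 0.278, 0.928, 0.241 and 3.14 CPM in Dot1l-cKO replicates 1 to 5. Both groups held samples under 0.3 and over 3 CPM. Its log2 fold change was -0.07 ± 0.79 (SE, 95% interval -1.79 to 1.66, edgeR adjusted p = 0.977). These intervals reach beyond a 2-fold change in at least 1 direction for each ligand, so a change of that size in that direction is not excluded. For Bmp5 that direction is an increase only.

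The levels of the 4 ligands followed the meningeal markers across samples. The summed CPM of 9 markers (Col1a1, Col1a2, Col3a1, Dcn, Lum, Foxc1, Foxd1, Aldh1a2 and Cxcl12) was 39.0 to 911 in controls and 46.8 to 834 in Dot1l-cKO, with none of the 9 DE. Control replicate 3 and Dot1l-cKO replicate 5 held the highest sums, and control replicate 4 and Dot1l-cKO replicates 2 and 4 the lowest. These 2 high samples also held the highest sums of their groups for choroid plexus, cortical hem, endothelial, erythroid and microglial markers. For pericyte markers Dot1l-cKO replicate 5 was narrowly the highest of its group and control replicate 3 was not. For neuronal markers neither was the highest. Relations were computed for meningeal and choroid plexus markers only, so whether the relation is particular to the meninges was not tested. On a log2 scale the mean of these markers and Bmp4 had a Pearson r of 0.97 over 10 samples (permutation p = 3e-05, adjusted 0.0006) and a Spearman rho of 0.96 (permutation p = 3e-05, adjusted 0.0003). For Bmp6 r was 0.95 (permutation p = 9e-05, adjusted 0.0009) and rho 0.98 (permutation p = 1e-05, the smallest these permutations can give, adjusted 0.0002). For Bmp7 r was 0.97 (permutation p = 0.00014, adjusted 0.000933) and rho 0.89 (permutation p = 0.00125, adjusted 0.00625), and for Bmp5 r was 0.89 (permutation p = 0.00118, adjusted 0.0059) and rho 0.90 (permutation p = 0.00092, adjusted 0.00613). Adjustment was over 20 relations, the 10 genes against meningeal and choroid plexus markers. Without the 2 samples farthest from the median of the markers, r was 0.95 for Bmp4, 0.97 for Bmp6, 0.93 for Bmp7 and 0.78 for Bmp5. Within the 6 libraries outside header number 57, r was 0.99, 0.94, 0.97 and 0.95 in the same order, and the 4 libraries of header number 57 were too few for a value.

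**Figure D2:**
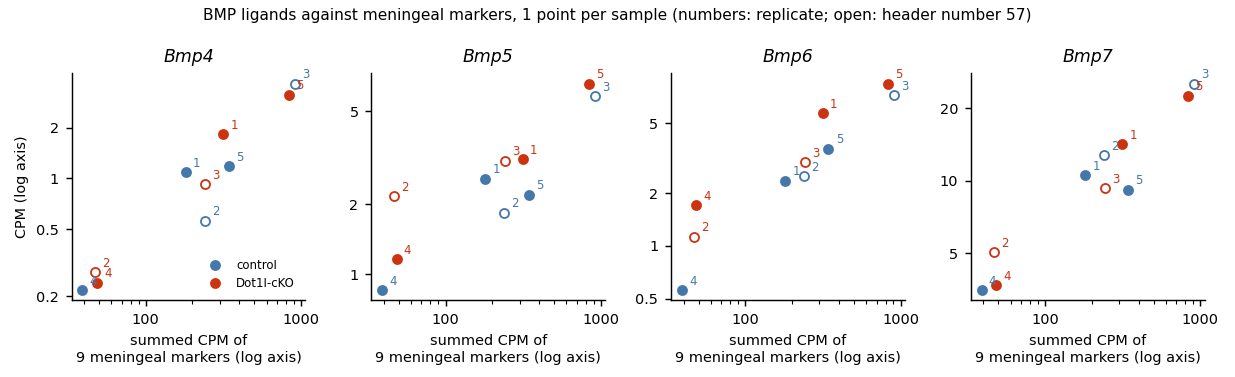
CPM of Bmp4, Bmp5, Bmp6 and Bmp7 against the summed CPM of 9 meningeal markers, both on log axes, with 1 point per sample, numbered by replicate, blue for control, red for Dot1l-cKO and open for header number 57. Control 3 (911 CPM of markers) and Dot1l-cKO 5 (834 CPM) stand at the upper right of each panel, and control 4 (39.0 CPM) at the lower left.

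Against 8 choroid plexus markers, which summed to 3.49 to 668 CPM among controls against 6.15 to 164 CPM in Dot1l-cKO with none DE (Kcne2 was at 0 in at least 1 library), r was 0.77 for Bmp4 (permutation p = 0.0113, adjusted 0.0323; rho 0.75, permutation p = 0.0177, adjusted 0.0443), and it was 0.80 without the 2 farthest samples. For Bmp5 r was 0.79 (permutation p = 0.00659, adjusted 0.0264; rho 0.83, permutation p = 0.00496, adjusted 0.0165), and for Bmp7 it was 0.74 (permutation p = 0.0158, adjusted 0.0351; rho 0.82, permutation p = 0.00598, adjusted 0.0171). For Bmp6 it was 0.64 (permutation p = 0.0475, adjusted 0.0930; rho 0.60, permutation p = 0.0722, adjusted 0.111). Without the 2 farthest samples r was 0.90 for Bmp5, above its 0.78 with the meningeal markers, 0.76 for Bmp7 and 0.77 for Bmp6. Within the 6 libraries outside header number 57 it was 0.65 for Bmp4, 0.71 for Bmp5, 0.71 for Bmp7 and 0.53 for Bmp6. Against these choroid plexus markers Id2 had a negative r of -0.77 (permutation p = 0.0112, adjusted 0.0323). Its rho was -0.85 (permutation p = 0.00307, adjusted 0.0123). The r of Id2 was -0.70 without the 2 farthest samples and -0.95 within those 6 libraries. With the meningeal markers it was -0.63 (permutation p = 0.0512, adjusted 0.0930). In whole tissue, fewer cells of a type and less RNA per cell cannot be told apart. The part of the meninges or the choroid plexus in the ligand or Id2 levels was not tested. Without control replicate 3 and Dot1l-cKO replicate 5, an alternative chosen after seeing the data, the log2 fold changes were 0.09 for Bmp4, 0.34 for Bmp5, 0.35 for Bmp6 and -0.17 for Bmp7, with none DE.

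The ligands had opposite signs within header number 57 and within the other 6 libraries. Within header number 57 the log2 fold changes were -1.79 for Bmp4, -0.53 for Bmp5, -1.22 for Bmp6 and -1.39 for Bmp7, and within the other 6 libraries they were 1.08, 0.96, 1.29 and 0.80. None passed the test in either set of libraries, with edgeR adjusted p from 0.263 to 0.674. Control replicate 3, the control with the highest meningeal sum, is in header number 57. Dot1l-cKO replicate 5, the highest of its group, is in the other set. Within header number 57 Bmp5 was higher in Dot1l-cKO in replicate 2 and lower in replicate 3, while Bmp4, Bmp6 and Bmp7 were lower in both. The difference between these sets was not tested, nor was the part of these 2 samples in it.

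**Figure D3:**
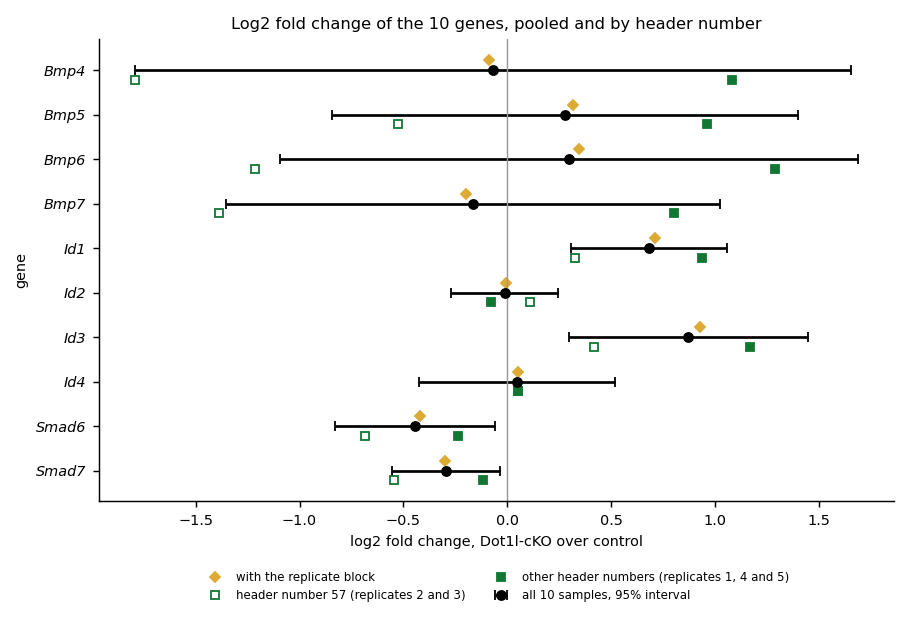
Log2 fold change of Dot1l-cKO over control for each of the 10 genes, with black points and bars for all 10 samples and their 95% interval, diamonds for the fit with the replicate block, open squares for header number 57 and filled squares for the other 6 libraries. For the 4 ligands the squares lie on opposite sides of 0, and Id1 (0.33 and 0.94) and Id3 (0.42 and 1.17) lie above 0 in both sets of libraries.

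Among the Id genes, Id1 rose in Dot1l-cKO. Id1 (ENSMUSG00000042745, chromosome 2, 152736251 to 152737410, plus strand) encodes a bHLH inhibitor found in progenitors and endothelium and is an immediate target of BMP Smads. It stood at 6.27, 5.47, 10.2, 6.06 and 6.12 CPM in control replicates 1 to 5, and control replicate 3 was far above the other 4. In Dot1l-cKO replicates 1 to 5 it stood at 11.8, 8.90, 10.5, 11.6 and 12.05 CPM. The groups overlapped only because control replicate 3 exceeded Dot1l-cKO replicate 2, and Id1 was higher in Dot1l-cKO in 5 of 5 pairs. The means were 6.82 ± 1.90 and 10.96 ± 1.30 CPM (SD, n = 5 each), a 1.61-fold difference with a log2 fold change of 0.68 ± 0.17 (SE, 95% interval 0.31 to 1.06, edgeR adjusted p = 0.0346).

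In edgeR the call of Id1 lay close to the threshold. Within header number 57 the log2 fold change was 0.33 (edgeR adjusted p = 0.645), and within the other 6 libraries it was 0.94 (edgeR adjusted p = 0.00791). With the header number as a block the log2 fold change was 0.69 and the edgeR adjusted p was 0.0581. With DESeq2, the study's own tool, the log2 fold change was 0.66 (DESeq2 adjusted p = 0.0034). Id1 was DE in 9 of the 11 alternatives other than leaving out 1 sample. Leaving out 1 sample at a time kept the log2 fold change between 0.61 and 0.87, but Id1 was DE in 2 of the 10 such fits, those without control replicate 3 (edgeR adjusted p = 0.00190) and without Dot1l-cKO replicate 2 (edgeR adjusted p = 0.0327). In the other 8 fits, without control replicates 1, 2, 4 or 5 or Dot1l-cKO replicates 1, 3, 4 or 5, the edgeR adjusted p was 0.0638 to 0.0921.

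Id3 (ENSMUSG00000007872, chromosome 4, 136143497 to 136145755, plus strand), whose product acts beside Id1 in progenitors and vessels, moved in the same direction. It stood at 15.8, 8.72, 21.6, 8.56 and 12.8 CPM in control replicates 1 to 5 and at 27.8, 18.6, 21.5, 21.3 and 34.4 CPM in Dot1l-cKO replicates 1 to 5. Control replicate 3 again stood above the other controls and within the range of Dot1l-cKO, and the level was higher in Dot1l-cKO in 4 of 5 pairs. Its log2 fold change was 0.87 ± 0.26 (SE, 95% interval 0.30 to 1.45), which did not pass the test (edgeR adjusted p = 0.0738). With the replicate block it was 0.93 and passed (edgeR adjusted p = 0.0298), while with the header number as a block it was 0.87 and did not pass (edgeR adjusted p = 0.0705). Within header number 57 it was 0.42 (edgeR adjusted p = 0.650) and within the other 6 libraries 1.17 (edgeR adjusted p = 0.0380). Without control replicate 3 it was 1.11 (edgeR adjusted p = 0.0166), and in the other 9 fits that left out 1 sample Id3 was not DE. With DESeq2 it was 0.85 and passed (DESeq2 adjusted p = 0.0163). Id3 was DE in 4 of the 11 alternatives other than leaving out 1 sample.

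**Figure D4:**
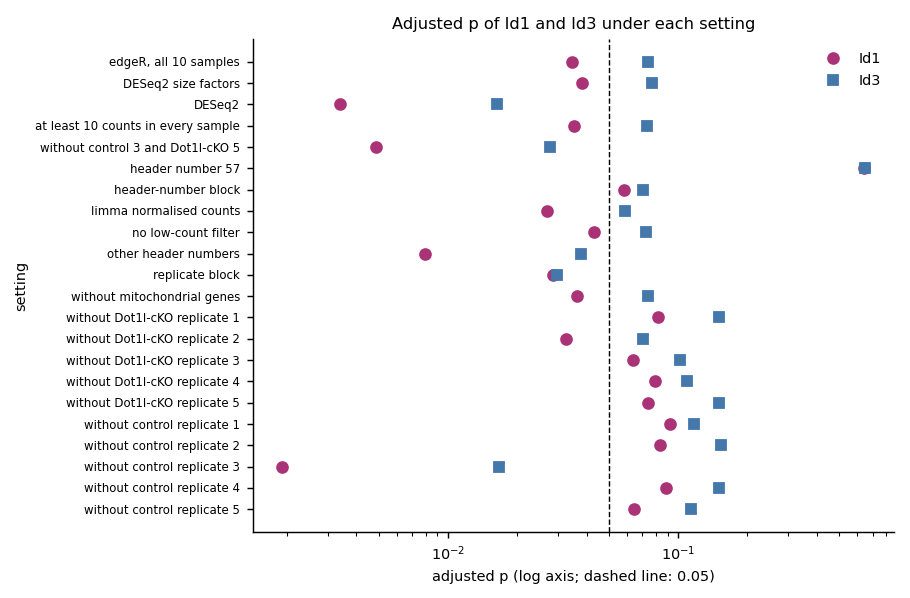
Adjusted p on a log axis, with a dashed line at 0.05, for Id1 (circles) and Id3 (squares) in the edgeR test of all 10 samples and under each alternative setting. Id1 lies left of the line in the test of all samples (0.0346) and right of it in 8 of the 10 fits without 1 sample, and both genes lie farthest right within header number 57.

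Id2 and Id4 had nearly the same level in both groups. Id2 (ENSMUSG00000020644, chromosome 12, 25093799 to 25097140, minus strand), an Id gene also expressed in cortical neurons, stood at 119, 120.2, 110.1, 159 and 148 CPM in control replicates 1 to 5 and at 132, 122, 123, 157 and 117 CPM in Dot1l-cKO replicates 1 to 5. Replicate 4 was highest in both groups, which overlapped nearly fully. The log2 fold change was -0.01 ± 0.12 (SE, 95% interval -0.27 to 0.25, edgeR adjusted p = 0.974), so the interval holds no change of the size fitted for Id1.

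Id4 (ENSMUSG00000021379, chromosome 13, 48261228 to 48266026, plus strand), an Id gene of neural progenitors, stood at 210.5, 301, 273, 175.5 and 153 CPM in control replicates 1 to 5 and at 206, 305, 283, 184 and 172 CPM in Dot1l-cKO replicates 1 to 5. The 4 libraries of header number 57, replicates 2 and 3 of each group, were above the other 6. The log2 fold change was 0.05 ± 0.21 (SE, 95% interval -0.43 to 0.52, edgeR adjusted p = 0.932), and it was 0.05 both within header number 57 and within the other 6 libraries.

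Markers of some other cell types differed between the groups, as Id1 did. All 8 microglial markers (Aif1, C1qa, C1qb, C1qc, Csf1r, Cx3cr1, P2ry12 and Trem2) rose, and their summed CPM was 38.0 to 65.5 in controls and 78.3 to 115 in Dot1l-cKO, with no overlap and none of the 8 at 0 in any library. With the replicate block 7 of the 8 rose. Of 8 radial glial markers, Vim, Fabp7 and Slc1a3 rose and Pax6 fell. The fold change was negative for 5 of the 8, with a median log2 fold change of -0.18, and 2 fell with the replicate block. Their summed CPM was 2184 to 2699 in controls and 2857 to 3201 in Dot1l-cKO, in which Vim alone had means of 919 and 1323 CPM. Of 8 cortical hem markers none was DE, 7 had a positive log2 fold change, the median was 0.60, and the sums were 52.2 to 139 CPM among controls against 69.8 to 153 CPM in Dot1l-cKO. No endothelial marker of 7 and no pericyte marker of 5 was DE, with endothelial sums of 133 to 244 CPM among controls against 121 to 277 CPM in Dot1l-cKO and pericyte sums of 86.1 to 136 and 80.6 to 144 CPM. Of 9 ventral telencephalic markers, 8 were tested and 1, Lhx6, fell, and the sums were 55.3 to 286 CPM among controls against 5.46 to 83.4 CPM in Dot1l-cKO. Over the 10 samples, deviations of Id3 from its group means had a Pearson r of 0.80 with those of the meningeal and 0.86 with those of the choroid plexus markers, and Id1 had 0.60 and 0.66, given as a description. With the levels themselves r was 0.46 for Id3 and the meningeal markers (permutation p = 0.187, adjusted 0.249; rho 0.68, permutation p = 0.0346, adjusted 0.0693). For Id3 and the choroid plexus markers it was 0.54 (permutation p = 0.11, adjusted 0.18; rho 0.68, permutation p = 0.0339, adjusted 0.0693). For Id1 it was 0.26 with the meningeal markers (permutation p = 0.459, adjusted 0.539). With the choroid plexus markers it was 0.33 for Id1 (permutation p = 0.339, adjusted 0.423). The part of any of these markers in the Id1 and Id3 levels was not tested.

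The 3 genes most like Id1 among 12704 candidates, by Pearson r over the 10 samples of deviations from the group means, were Ccn2 (r = 0.94), P4ha2 (r = 0.91) and Filip1l (r = 0.91). The points share libraries and depth, and this likeness is a description. It includes control replicate 3, where Id1 stood far above the other controls, and r without that sample was not computed. Ccn2 encodes a matricellular growth factor and had a log2 fold change of 0.57 (edgeR adjusted p = 0.222). P4ha2, a subunit of the enzyme that hydroxylates proline in collagen, had 0.55 (edgeR adjusted p = 0.0762), and Filip1l had -0.12 (edgeR adjusted p = 0.792).

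Smad6 and Smad7, which hold back signalling at the receptors, were lower in Dot1l-cKO in most pairs without passing the test. Smad6 (ENSMUSG00000036867, chromosome 9, 63953076 to 64022059, minus strand), whose start holds the adjoining Smad boxes shown above, stood at 6.75, 8.05, 11.1, 5.65 and 7.78 CPM in control replicates 1 to 5 and at 5.96, 5.74, 6.00, 4.54 and 6.65 CPM in Dot1l-cKO replicates 1 to 5. Control replicate 3 was highest, and the level was higher in Dot1l-cKO in 0 of 5 pairs. The log2 fold change was -0.44 ± 0.18 (SE, 95% interval -0.83 to -0.06, edgeR adjusted p = 0.177, and 0.0812 with the replicate block). Smad6 and the meningeal markers had r = 0.72 (permutation p = 0.0149, adjusted 0.0351) and rho = 0.67 (permutation p = 0.0389, adjusted 0.0708), r without the 2 farthest samples was 0.58, and within the 6 libraries outside header number 57 it was 0.71.

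Smad7 (ENSMUSG00000025880, chromosome 18, 75367529 to 75395935, plus strand), which also inhibits TGF-beta and activin signalling, stood at 12.3, 16.0, 14.7, 13.2 and 13.1 CPM in control replicates 1 to 5 and at 11.5, 8.72, 12.01, 11.1 and 13.1 CPM in Dot1l-cKO replicates 1 to 5. Dot1l-cKO replicate 5 reached the control range and replicate 2 was lowest. The level was higher in Dot1l-cKO in 1 of 5 pairs, and the log2 fold change was -0.29 ± 0.12 (SE, 95% interval -0.55 to -0.03, edgeR adjusted p = 0.184). Within header number 57 the log2 fold changes of Smad6 and Smad7 were -0.68 and -0.55, and within the other 6 libraries -0.24 and -0.11, with none DE.

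The rest of the pathway was read from 8 lists with 68 distinct genes, of which 59 were tested. Of these, 5 increased and 3 decreased, beside 5.67% and 1.44% of all genes tested, and the median log2 fold change of the 59 was -0.08. With the replicate block 4 increased and 4 decreased, beside 6.51% and 2.91%. No list was tested against other genes. Bambi, a decoy receptor that is also a BMP target, is in 2 of the lists.

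Extracellular antagonists bind ligands and keep them from receptors. Of 14 listed, 12 were tested, 3 increased (5.67% of all genes tested did) and none decreased, with a median log2 fold change of 0.30. Grem1, which encodes the antagonist gremlin, stood at 1.99, 1.81, 2.16, 2.01 and 1.97 CPM in control replicates 1 to 5 and at 5.70, 5.39, 4.57, 5.99 and 4.56 CPM in Dot1l-cKO replicates 1 to 5. No sample of one group reached the other, and the log2 fold change was 1.40 ± 0.12 (SE, edgeR adjusted p = 0.000153). Its difference was 2.64-fold and had the same direction in both sets of libraries, with a log2 fold change of 1.35 in header number 57 (edgeR adjusted p = 0.139) and 1.44 in the other 6 libraries (edgeR adjusted p = 0.00684).

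Chrdl1, which encodes a chordin-like BMP antagonist, stood at 2.33, 3.19, 2.19, 2.23 and 2.00 CPM in control replicates 1 to 5 and at 6.43, 5.29, 5.34, 5.29 and 3.09 CPM in Dot1l-cKO replicates 1 to 5. Only Dot1l-cKO replicate 5 fell within the control range, and the log2 fold change was 1.09 ± 0.20 (SE, edgeR adjusted p = 0.00759). Fst, the activin and BMP binding protein follistatin, stood at 5.55, 6.68, 5.48, 5.85 and 6.08 CPM in control replicates 1 to 5 and at 11.1, 13.1, 13.9, 11.3 and 7.47 CPM in Dot1l-cKO replicates 1 to 5. Its groups did not overlap, with a log2 fold change of 0.94 ± 0.16 (SE, edgeR adjusted p = 0.00447). Fstl1, the highest of the list per kilobase, had 22.2 ± 6.55 CPM per kb in controls and 23.4 ± 2.70 in Dot1l-cKO (SD, n = 5 each) and a log2 fold change of 0.07.

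Among 10 further ligands, 3 were tested and 1, Bmp2, increased. Bmp2, whose product is closest to Bmp4, stood at 1.25, 0.649, 1.66, 1.25 and 1.31 CPM in control replicates 1 to 5 and at 2.08, 2.46, 1.94, 1.89 and 3.70 CPM in Dot1l-cKO replicates 1 to 5. The groups did not overlap, and the log2 fold change was 0.98 ± 0.26 (SE, edgeR adjusted p = 0.0467, and 0.0573 with the replicate block). Leaving out 1 sample, it was DE only without control replicate 3 (edgeR adjusted p = 0.0318), and without any one of the other 9 samples the edgeR adjusted p was 0.0616 to 0.102. Bmp3, the highest of the list per kilobase, had a log2 fold change of 0.09 (edgeR adjusted p = 0.687).

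None of the 7 receptor genes was DE, although all 7 had a negative log2 fold change, with a median of -0.27. For Acvr2a it was as small as -0.00042, and it was positive with the replicate block (0.014). Bmpr1a, a type I BMP receptor and the highest of them per kilobase, had 25.5 ± 3.20 CPM per kb in controls and 21.1 ± 2.47 in Dot1l-cKO (SD, n = 5 each). Its log2 fold change was -0.27 (edgeR adjusted p = 0.171), and it fell with the replicate block (edgeR adjusted p = 0.0286). None of the 4 genes of the receptor-regulated and common Smads was DE. Smad4, the common partner and the highest of them per kilobase, had a log2 fold change of -0.19 (edgeR adjusted p = 0.269). None of the 10 genes of the TGF-beta and activin branch was DE, and Tgfbr1, its highest per kilobase, had a log2 fold change of 0.07.

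None of the 6 other intracellular and membrane inhibitors was DE. Ski, a Smad corepressor and the highest of them per kilobase, had a log2 fold change of -0.10, and its relative Skil had -0.26 (edgeR adjusted p = 0.202, and 0.0342 with the replicate block). Among 7 other BMP response genes 1 increased and 1 decreased. Atoh8, a bHLH gene, stood at 1.55, 2.19, 2.50, 1.90 and 1.63 CPM in control replicates 1 to 5 and at 2.40, 2.83, 3.34, 3.47 and 3.16 CPM in Dot1l-cKO replicates 1 to 5. The groups overlapped only through control replicate 3 and Dot1l-cKO replicate 1, and the log2 fold change was 0.64 ± 0.17 (SE, edgeR adjusted p = 0.0450). Leaving out 1 sample, Atoh8 was DE without control replicate 3 or Dot1l-cKO replicate 1, and without any one of the other 8 samples the edgeR adjusted p was 0.0639 to 0.113.

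Hey1, which is also a target of Notch and was the highest of that list per kilobase, went the other way. It stood at 61.9, 61.3, 61.8, 53.05 and 46.2 CPM in control replicates 1 to 5 and at 43.0, 46.1, 43.5, 42.4 and 44.5 CPM in Dot1l-cKO replicates 1 to 5. All control samples lay above all Dot1l-cKO samples, control replicate 5 only narrowly, with a log2 fold change of -0.37 ± 0.09 (SE, edgeR adjusted p = 0.0248). Without control replicate 1 or 2 or Dot1l-cKO replicate 1, 3 or 4 Hey1 was not DE (edgeR adjusted p = 0.0578 to 0.0697).

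The bHLH factors that Id proteins bind or act beside held 2 decreases and no increase among 11 genes, beside 1.44% decreased over all genes tested. With the replicate block 1 of the 11, Tcf4, decreased, beside 2.91%. Tcf4 and Tcf12, the genes that fell, encode E proteins, the common dimer partners that Id proteins capture directly. Tcf4 stood at 1055, 999, 1094, 1008 and 907 CPM in control replicates 1 to 5 and at 641, 470.1, 651, 589 and 708 CPM in Dot1l-cKO replicates 1 to 5. The groups were far apart, and the log2 fold change was -0.73 ± 0.10 (SE, edgeR adjusted p = 0.00199), a call made in 20 of 21 alternatives, all but the 4 libraries of header number 57. Tcf12 averaged 253 ± 17.6 CPM (SD, n = 5) in the control group against 211 ± 12.4 CPM (SD, n = 5) after deletion, without overlap. Its log2 fold change was -0.26 ± 0.07 (SE, edgeR adjusted p = 0.0467, and 0.0581 with the replicate block), and leaving out 1 sample it was DE only without control replicate 5, with an edgeR adjusted p of 0.0567 to 0.119 without any one of the others. The third E protein gene, Tcf3, had -0.10 (edgeR adjusted p = 0.582). Neurog2, a proneural gene and the highest of the list per kilobase, had 0.13 (edgeR adjusted p = 0.736), and Olig1 and Olig2, factors of ventral progenitors, had -1.65 and -1.31 (edgeR adjusted p = 0.118 and 0.129) beside the lower ventral marker sums given above.

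**Figure D5:**
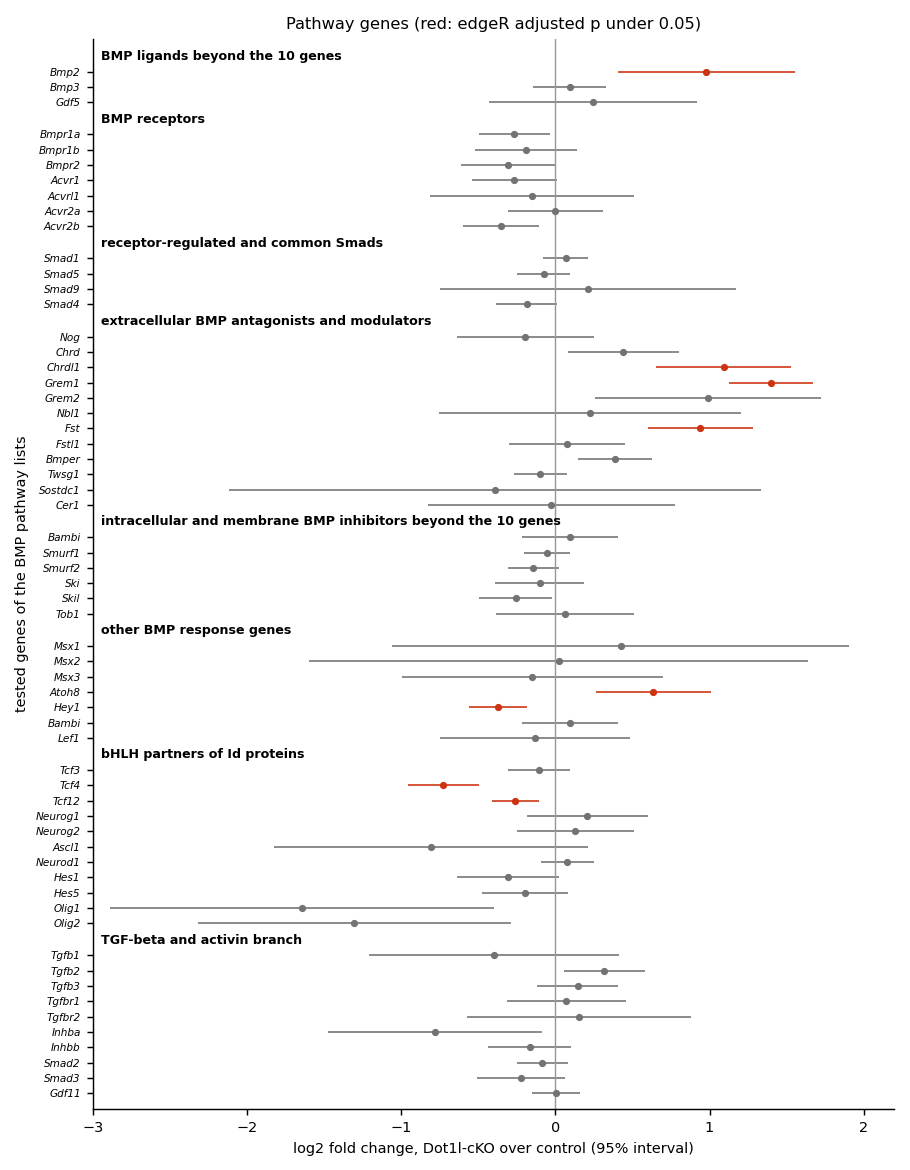
Log2 fold change of Dot1l-cKO over control with its 95% interval for the 59 tested genes of the 8 pathway lists, grouped by list, in red where the edgeR adjusted p was under 0.05. Grem1 (1.40), Chrdl1 (1.09), Bmp2 (0.98), Fst (0.94) and Atoh8 (0.64) lie to the right in red and Tcf4 (-0.73), Hey1 (-0.37) and Tcf12 (-0.26) to the left.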

How the data were processed

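Total RNA-seq of 5 control and 5 Dot1l-cKO samples was used. The authors trimmed reads with Trim Galore 0.2.8, mapped them to mm10 with TopHat2 2.0.9 and counted genes with HTSeq 0.6.0, so the deposited counts are whole reads per gene. The deposited normalised values are a signal, the same counts divided by the authors' DESeq2 1.6.1 size factors. Libraries were stranded, and counting had no molecular identifiers, so depth covers counting error only. Of 43629 identifiers 42462 matched a GENCODE symbol, and the rest held 0.268% of the counts. No column was left unassigned.

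Genotypes were compared with edgeR 4.0.16 in R 4.3.3 (filterByExpr, TMM, quasi-likelihood test, Benjamini-Hochberg, adjusted p under 0.05). The study's own tool, DESeq2 (here 1.42.0), served as an alternative. The SE is the fold change over the square root of F and is approximate. Relations used 100000 permutations and log2(CPM + 0.25). On simulated counts of this comparison (16899 genes, 200 changed by 1 log2 unit) 83% were recovered and 3.49% of calls were false. The 10 genes and all lists were chosen with earlier results of these data known. Named genes are the 10 genes, the DE genes and the highest gene of each pathway list, Dot1l and the 3 genes most like a DE gene of the 10 (mean log2 CPM at least 1). Olig1, Olig2, Tcf3, Skil, Lhx6, Vim, Fabp7, Slc1a3 and Pax6 were named after their values were seen. A gene that the rule also names is not reported here.

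Replicate numbers were used as pairs for the pair counts and the replicate block. Deviations of same-numbered samples from their group means correlated at 0.131 to 0.597 in each of 5 pairs. The mean was 0.290, against -0.072 between samples of different numbers. Of the 10 samples, 5 had their highest correlation with the sample of their own number. Both genotypes of a number share a header number, and pairing was not told apart from that shared number. No pair of libraries agreed within sampling noise. Alternatives were DESeq2, its size factors in edgeR, no low-count filter, a stricter filter that kept genes with 10 or more reads in each library, blocks for the replicate or the header number, number 57 alone, the other header numbers alone, no mitochondrial genes, limma 3.58.1 on log2(normalised count + 1) and each sample left out. Leaving out control replicate 3 and Dot1l-cKO replicate 5 together was chosen after the data were examined. Protein sequences and the promoters of Bmp7, Id1 and Smad7 were not analysed here.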

Additional observations from a re-analysis of the deposited data

Results flagged for a closer look

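Among 38 groups of 5 samples tested for a sample far from the others, which chance flags in about 1 in 20, 3 stood apart on the log2 scale. Id1 in control replicate 3 was 10.2 CPM against a group median of 6.12 CPM, and its gap to the next sample was 0.782 of the group's range. Chrdl1 in Dot1l-cKO replicate 5 was 3.09 CPM against a median of 5.29 CPM, a gap of 0.729 of the range. Dot1l in Dot1l-cKO replicate 2 was 20.1 CPM against a median of 42.3 CPM, a gap of 0.717 of the range.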

How the results depend on the processing

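Of 21 alternatives, the count of DE genes (1212) became 2001 with DESeq2, 1 within header number 57 and 745 within the other header numbers, where fewer samples were fitted. The count of DE genes among the 10 (1) became 2 with DESeq2, with the replicate block, within the other header numbers and without control replicate 3 and Dot1l-cKO replicate 5, and 0 within header number 57 and with the header-number block. The count of DE pathway genes (8) became 13 with DESeq2, 5 with no low-count filter, 0 within header number 57 and 4 within the other header numbers. Leaving out 1 sample at a time gave 750 to 1357 DE genes (750 without control replicate 1 and 779 without control replicate 4), 0 to 2 of the 10 genes and 4 to 9 pathway genes. The replicate block (1604 DE genes) lost Bmp2 and Tcf12 and added Id3, Bmpr1a and Skil, and changed no other call of the 10 genes or the pathway genes.

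Directions turned for genes that were never DE. Within header number 57 the log2 fold change was -0.53 for Bmp5, -1.22 for Bmp6 and 0.11 for Id2, within the other header numbers 1.08 for Bmp4 and 0.80 for Bmp7, and without control replicate 3 and Dot1l-cKO replicate 5 it was 0.094 for Bmp4. Leaving out 1 sample gave -0.72 to 0.76 for Bmp4, -0.16 to 0.79 for Bmp5, -0.17 to 0.83 for Bmp6, -0.61 to 0.28 for Bmp7, -0.087 to 0.065 for Id2 and -0.078 to 0.18 for Id4. Id1 and Id3 had positive and Smad6 and Smad7 negative values in all 21 alternatives. The cause of these shifts was not tested. DESeq2 size factors moved the median log2 fold change of all genes to -0.03. Bmp4 had as few as 14 reads in a library, and its fold change had the largest SE of the 10 genes (0.79). The source of that SE was not tested.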
